A study of Homo sapiens with 9 samples.

Results

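The AP-1 transcription factors were followed through 9 RNA-seq libraries of MDA-MB-453, a human breast cancer cell line that the labels class as triple-negative. The family was taken as 10 genes, FOS, FOSB, FOSL1, FOSL2, JUN, JUNB, JUND, ATF3, BATF3 and JDP2, found by symbol among the 59452 gene rows of the count table. All 10 had a row, and 8 of the 10 passed the filter on low counts that left 15528 genes. The first group was attached to uncoated plastic and received vehicle (DMSO), and the second was kept in suspension on poly-HEMA-coated plates with the same vehicle. The third was suspended in the same way and received AT-0174 at 10 µmol/L, a compound that inhibits TDO2 and IDO1, enzymes that open the catabolism of tryptophan. Each group held 3 libraries, described by the submitters as biological triplicates and collected at 48 hours, and all 9 came from 1 unmodified cell line. There was no attached group with AT-0174. The family was chosen by measured values of these same libraries, the suspended against attached comparison among them. The levels and fold changes of its members are therefore a description, and no p-value is given for them.

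AP-1 is a dimer of basic leucine zipper (bZIP) proteins. FOS proteins cannot pair with each other and need a JUN partner, whereas JUN proteins can pair with themselves, with FOS proteins or with ATF proteins. The dimers bind the TPA response element (TRE, TGACTCA) or the cyclic AMP response element (CRE, TGACGTCA). FOS, FOSB, JUN, JUNB and ATF3 are immediate-early genes, whose short-lived mRNAs appear within minutes of a growth factor, serum or stress signal, while JDP2 pairs with JUN proteins and represses AP-1 sites.

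The stretches below show an element of each kind found before the starts of 5 members, FOS and FOSB first because they had the largest fold changes. They are not every match. They are sequence of GRCh38, read 5′ to 3′ on the strand of the gene, with the matched letters in capitals. The stretches at 314 and 274 bases were read from the genome upstream of the RefSeq promoter entries, and the others from those entries (GRCh38.p14). Distances are counted in bases upstream of the RefSeq transcript start.
FOS, 64 bases upstream, chr14:75278752-75278781, plus strand: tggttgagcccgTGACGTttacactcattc
FOSB, 60 bases upstream, chr19:45467924-45467953, plus strand: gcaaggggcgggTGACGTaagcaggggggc
FOS, 314 bases upstream, chr14:75278502-75278535, plus strand: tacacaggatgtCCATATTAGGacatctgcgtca
FOSB, 274 bases upstream, chr19:45467710-45467743, plus strand: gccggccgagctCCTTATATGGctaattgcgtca
JUN, 67 bases upstream, chr1:58784095-58784126, minus strand: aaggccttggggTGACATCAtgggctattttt
ATF3, 123 bases upstream, chr1:212565272-212565303, plus strand: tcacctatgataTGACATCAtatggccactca
JUND, 200 bases upstream, chr19:18281803-18281834, minus strand: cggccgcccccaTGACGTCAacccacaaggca

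The first FOS and FOSB stretches share the short CRE core TGACGT at nearly the same distance from the start. Searched on both strands, this core stood in 7.98% of 35116 RefSeq promoters of 300 bases, and the full CRE, which contains it, in 1.85%. JUND, FOSL2 and JDP2 also held the short core, so that 5 of the 8 members with a promoter entry did, among them members that were not called higher. A member was counted if any of its entries held the core, whereas the 7.98% is per entry. JDP2 had 3 entries and ATF3 2, against 1 for each of the others. JUN and ATF3 each held the 8-letter element TGACATCA, present in 2.61% of the promoters, and JUND held a full CRE at 200 bases and a short core nearer its start, at 87 bases. FOSL2 held its short core at 66 bases. The TRE itself stood in 4.95% of the promoters and, among the members, only in that of FOSL2. The second FOS and FOSB stretches hold a CArG box, the core of the serum response element that serum response factor binds. This search, added after the data were seen, covered the 500 bases before each start. Among the 8 members with a promoter entry only FOS and FOSB held a CArG box there, against 2.43% of 35116 starts. The same search found a full CRE at 325 bases in FOSB and at 497 bases before the second start of ATF3, against 1.98% of starts, and a short core at 322 bases in JUN, against 10.3%. JUNB, FOS and FOSB carried the TATA box letters TATAAA at 31, 33 and 30 bases upstream, and ATF3 held them farther upstream of its second start. Anywhere in the 300 bases, 7.33% of promoters held these letters. A match is a description of letters and not of binding.

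In GENCODE coordinates of GRCh38, FOS lies at chr14:75278826-75282230 and JDP2 at chr14:75427716-75474111, both on the plus strand. The gap between them is 145.5 kb and holds 0 other protein-coding genes. FOSB (chr19:45467995-45475179), JUNB (chr19:12791486-12793315) and JUND (chr19:18279694-18281622) share chromosome 19. JUN lies at chr1:58776845-58784048, FOSL2 at chr2:28392448-28417317 and FOSL1 at chr11:65892049-65900573. ATF3 (chr1:212565334-212620777) and BATF3 (chr1:212686417-212699840) are 65.6 kb apart. JUN, JUNB and JUND have 1 exon in their reference transcript, whereas FOS, FOSB, FOSL2, ATF3 and JDP2 have 4.

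Total estimated counts per library ran from 36649997 to 48019126, so that 3 counts corresponded to 0.0625 to 0.0819 CPM (estimated counts per 1000000 scaled counts). Epithelial and luminal markers (EPCAM, KRT8, KRT18, KRT19, FOXA1, ERBB2) were at 293 TPM (transcripts per 1000000, corrected for length) or more in all 9 libraries. Of 8 genes listed as low or absent in this line, 7 stayed at or below 0.306 TPM (ESR1, PGR, KRT5, KRT14, PTPRC, PECAM1, ACTA2) and COL1A1 was at 51.5 to 66.0 TPM. Transcripts of the mitochondrial genome took 7.56% to 9.32% of counts in attached libraries, 4.05% to 4.34% in suspended vehicle libraries and 3.73% to 5.51% with AT-0174. With these transcripts left out, the log2 fold change of FOS in suspension was still 5.54 and the same members were called. In bulk RNA, a change in the number of cells that express a gene and a change in the level per cell cannot be told apart.

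FOS, the partner that brings JUN proteins into the most stable AP-1 dimers, was low in attached cells and much higher in suspended cells. Attached libraries held 27, 34 and 23 estimated counts, or 0.706, 0.941 and 0.592 CPM. Suspended vehicle libraries held 1453, 2004 and 917 counts, or 37.5, 45.4 and 20.9 CPM. The lowest suspended library was above the highest attached library by a wide margin. The mean moved from 0.746 ± 0.178 to 34.6 ± 12.5 CPM (SD, n = 3), a log2 fold change of 5.54 ± 0.39 (SE of the edgeR fit), or 46.4-fold. In attached cells 17.1% of the tested genes had a lower mean TPM than FOS, and in suspended vehicle cells 79.3%. With AT-0174 FOS was at 33.4, 42.9 and 26.3 CPM, within the range of the suspended vehicle libraries.

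FOSB, the closest relative of FOS, moved the same way by a smaller amount. It was at 2.69, 2.57 and 2.09 CPM in attached libraries, at 7.31, 8.30 and 4.71 CPM in suspended vehicle libraries and at 4.31, 6.93 and 3.79 CPM with AT-0174. The attached and suspended vehicle libraries did not overlap, whereas the 2 suspended groups did. The log2 fold change between suspended and attached vehicle cells was 1.47 ± 0.25, or 2.76-fold. FOSL2, a FOS relative without a strong transactivation domain, was not called, with means of 35.5 ± 0.31, 35.7 ± 0.71 and 36.9 ± 0.62 CPM in the attached, suspended vehicle and AT-0174 groups. FOSL1 had between 0 and 5 counts per library and was not fitted. A library with 0 counts of FOSL1 allows up to 3 counts, or 0.0819 CPM in the shallowest library, for counting error only.

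The JUN genes encode the partners of FOS and moved by less than FOSB. JUN was at 31.2, 33.9 and 30.4 CPM in attached libraries and at 44.5, 46.2 and 37.8 CPM in suspended vehicle libraries, with a log2 fold change of 0.43 ± 0.075, or 1.35-fold. JUNB, which activates transcription more weakly than JUN and can oppose it, was the most abundant member in every group. It was at 205, 218 and 202 CPM attached and at 314, 329 and 287 CPM in suspended vehicle cells, a log2 fold change of 0.57 ± 0.055. JUN and JUNB did not overlap between attached and suspended vehicle libraries. JUND, which many cells express steadily, was at 103, 103.6 and 102 CPM attached and at 105, 113 and 115 CPM suspended. These ranges did not overlap either, but the log2 fold change of 0.11 ± 0.041 was not called.

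The ATF-like members did not share this direction. JDP2 was the only member called lower in suspended vehicle cells, at 135, 135 and 130 CPM attached and 112, 110 and 109 CPM suspended. The groups did not overlap, and the log2 fold change was -0.28 ± 0.036. ATF3, a stress-induced factor that represses or activates depending on its partner, was at 2.48, 2.24 and 2.06 CPM attached and at 1.89, 2.79 and 2.41 CPM suspended. Its log2 fold change of 0.066 ± 0.17 was smaller than its standard error, and its sign was not stable: leaving out 1 library at a time gave -0.066 to 0.20, and counts rebuilt from TPM gave -0.45. BATF3, whose partners are JUN proteins, had 0 to 2 counts per library and was not fitted.

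**Figure D1:**
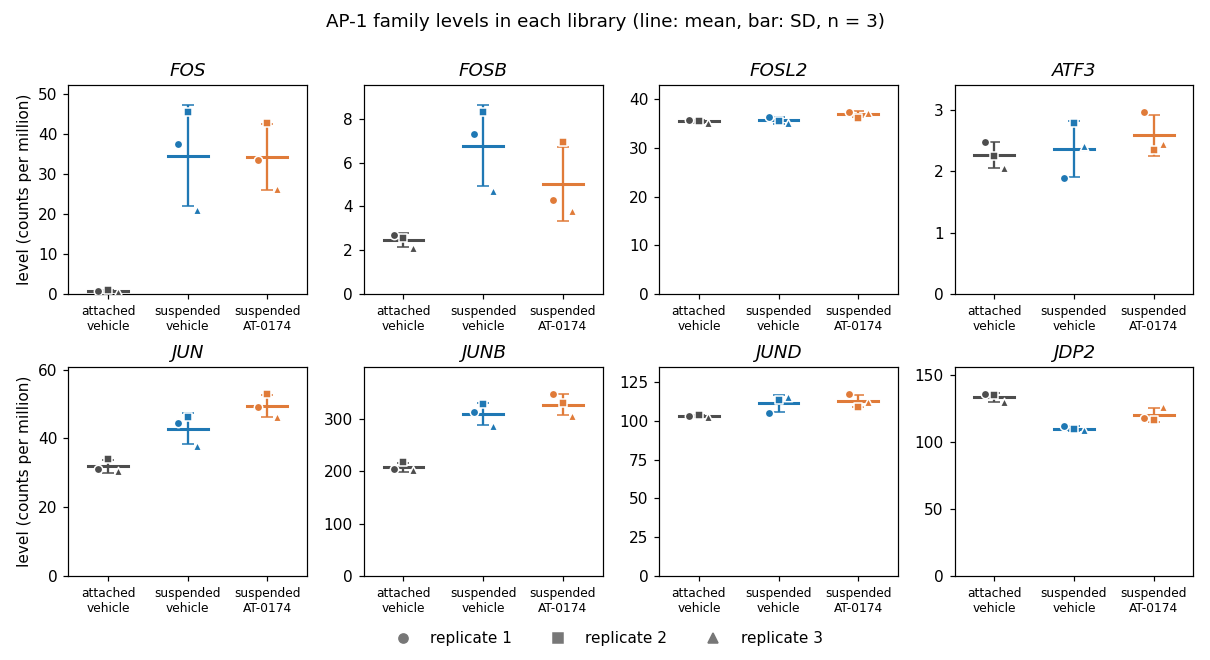
Level of each fitted member in CPM (vertical axes, from 0) in the 9 libraries, by group. Points are libraries with a symbol for each replicate number, lines are means and bars are SD (n = 3). FOS is below 1 CPM in the 3 attached libraries and at 20.9 CPM or more in the 6 suspended libraries, while FOSL2 and ATF3 overlap between attached and suspended vehicle cells.

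In all, 5 of the 8 fitted members were called between suspended and attached vehicle cells at an adjusted p under 0.05, 4 higher and 1 lower. Of all 15528 genes, 21.2% were called, 10.4% higher and 10.8% lower. In 6 of the 8 members the 2 groups did not overlap, which was so for 38.1% of all genes. The median log2 fold change was 0.27 over the 8 members and -0.00025 over all genes. These shares are given side by side only, since the choice of the family used this comparison. FOS, FOSB, JUN, JUNB and JDP2 were called in all 15 other fits of this comparison, and JUND in 2 of 15, without suspended vehicle replicate 1 and with no filter on low counts.

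The comparison of AT-0174 with vehicle in suspended cells asked whether the inhibitor changed the family. None of the 8 members was called (edgeR quasi-likelihood), where 121 of all 15528 genes, or 0.779%, were, and at an unadjusted p under 0.05 the count was 2 of 8 members and 1401 genes. DESeq2 and limma-voom called 0 members as well. The log2 fold change was -0.018 ± 0.22 for FOS, -0.44 ± 0.23 for FOSB, 0.050 ± 0.037 for FOSL2, 0.080 ± 0.054 for JUNB, 0.021 ± 0.040 for JUND and 0.13 ± 0.17 for ATF3. The standard errors of FOS, FOSB and ATF3 are wide enough that a change of moderate size would not have been detectable. JUN was at 49.0, 52.8 and 46.4 CPM with AT-0174, above all 3 suspended vehicle libraries, and its log2 fold change was 0.20 ± 0.072. JDP2, at 118, 117 and 126 CPM, was also above all 3 suspended vehicle libraries and below all 3 attached libraries, with a log2 fold change of 0.13 ± 0.036. Such a lack of overlap was found for 15.4% of all genes. Both comparisons use the suspended vehicle libraries, so that opposite changes in JDP2 are not independent. FOSB and JUN were the 2 members called when no filter on low counts was applied.

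**Figure D2:**
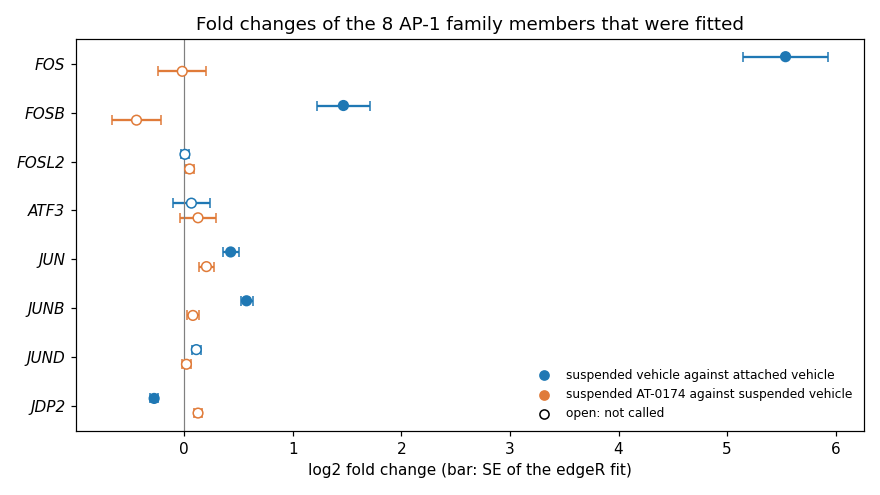
Log2 fold change of the 8 fitted members (horizontal axis) in suspended against attached vehicle cells and in AT-0174 against vehicle suspended cells. Bars are the SE of the edgeR fit over 3 libraries a group, and filled points were called at an adjusted p under 0.05. FOS stands at 5.54 and FOSB at 1.47 in the first comparison, and all 8 points of the second are open.

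TPM corrects for transcript length, using the transcripts to which the model assigned the counts. In attached cells the order of mean TPM over the 8 fitted members was JUNB 171, JDP2 149, JUND 80.8, JUN 15.8, FOSL2 9.98, ATF3 2.78, FOSB 0.983 and FOS 0.981. FOS and FOSB overlapped between libraries, and the other neighbours in this order did not. In suspended vehicle cells the order was JUNB 275, JDP2 129, JUND 97.9, FOS 56.4, JUN 22.8, FOSL2 10.8, FOSB 3.84 and ATF3 2.16. FOSL1 and BATF3 were below these in all 3 groups. FOS thus went from the level of FOSB, the lowest of the 8, to the fourth place. The size of the FOS value in TPM depends on the assignment to short transcripts. FOS-209, of 596 bases, held 10.2% of FOS counts but 21.4% of FOS TPM in suspended vehicle cells. In CPM, which are not corrected for length, FOS at 34.6 was below JUN at 42.9 and near FOSL2 at 35.7 in these cells. The reference transcripts of JUN and FOSL2, of 3257 and 6713 bases, are longer than FOS-201, of 2104 bases. In the second order FOSB and ATF3 overlapped, the lowest FOSB library standing at 2.72 TPM and the highest ATF3 library at 2.78 TPM. With AT-0174 the order was the same, with JUNB at 283, FOS at 56.1 and ATF3 at 2.97 TPM beside FOSB at 3.03 TPM.

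The make-up of the family mRNA shifted with these changes. The summed level of all 10 members was 432 ± 15.5 TPM in attached, 599 ± 44.1 in suspended vehicle and 612 ± 20.4 in AT-0174 cells. The FOS subfamily (FOS, FOSB, FOSL1, FOSL2) made up 2.78% ± 0.14 of it in attached cells and 11.8% ± 2.95 in suspended vehicle cells. JDP2 went from 34.5% ± 0.41 to 21.6% ± 1.54 of the family mRNA, a share that also moves when the other members do. The JUN subfamily held 22.4 ± 0.99 TPM for each TPM of the FOS subfamily in attached cells, 5.95 ± 1.87 in suspended vehicle cells and 5.88 ± 1.11 with AT-0174. The lowest ratio of these subfamily sums in a library was 4.60, although FOS itself stood above JUN itself in TPM in all 6 suspended libraries. These sums and shares use the TPM of FOS, so their size depends on the same assignment to short transcripts. These are mRNA levels, and no protein or dimer was measured.

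**Figure D3:**
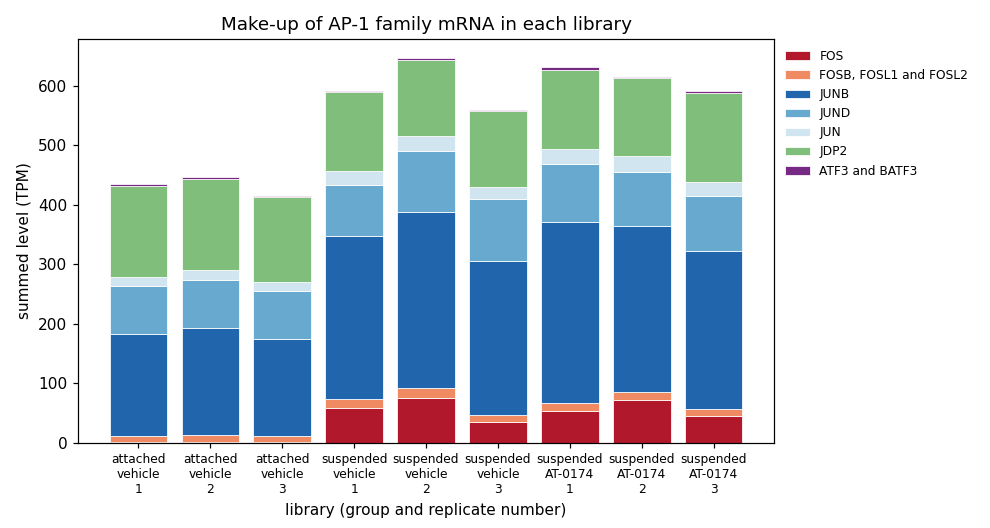
Summed level of the AP-1 family in TPM (vertical axis) in each library, stacked by member. The FOS block is at or below 1.18 TPM in the 3 attached libraries and at 34.6 to 76.0 TPM in the 6 suspended libraries, and JUNB is the tallest block in all 9.

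The members differed in how far replicates spread. In suspended vehicle cells the coefficient of variation was 36.2% for FOS and 27.3% for FOSB, against 1.98% for FOSL2 and 1.54% for JDP2. The libraries lowest in FOS were also lowest in FOSB, JUN and JUNB. ATF3, also an immediate-early gene, did not follow: it was at 102% of its group mean in suspended vehicle replicate 3. Replicate 3 was the lowest library for FOS, FOSB, JUN and JUNB in all 3 groups, and for none of JUND, FOSL2, ATF3 and JDP2 in all 3. Over all 15528 genes, 4.92% had replicate 3 lowest in all 3 groups. This pattern was noticed in the values and not tested. The same replicate number did not mark libraries that deviated together over all genes, where correlations of deviations between same-numbered libraries lay between -0.067 and 0.049. Total counts of the replicate 3 libraries were 39931024, 42970982 and 44064734, inside or above the range of the other libraries.

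**Figure D4:**
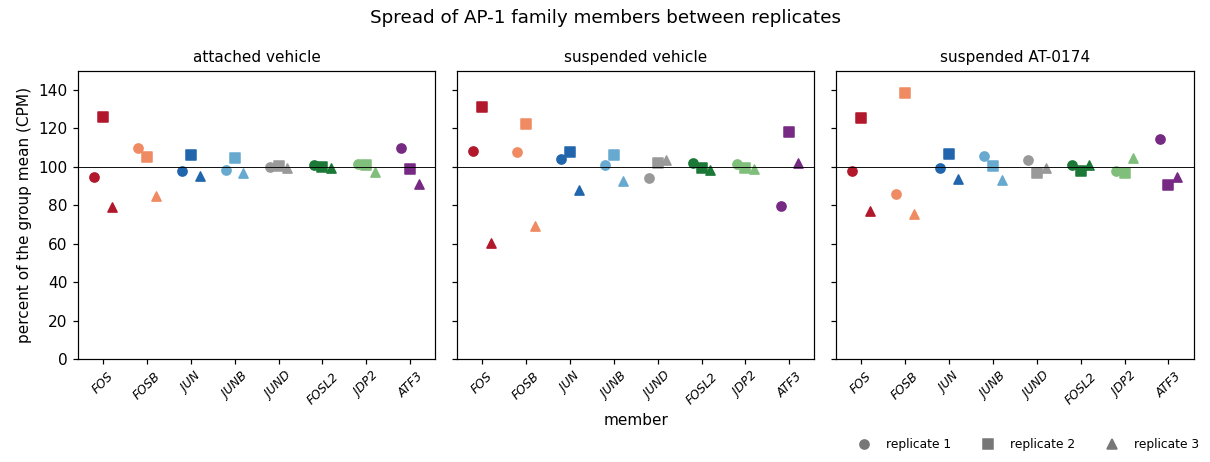
Level of each fitted member in each library as a percent of its group mean (vertical axis), with a symbol for each replicate number. Triangles, replicate 3, are lowest for FOS, FOSB, JUN and JUNB in all 3 panels, reaching 60.3% of the mean for FOS in suspended vehicle cells, and points of FOSL2 stay within 98.1% to 102%.

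FOS counts were spread over several annotated transcripts. Of the 10 FOS transcripts quantified, the reference transcript FOS-201 has all 3 introns removed, while others keep intron bases in their exons. Transcripts that hold bases of the FOS-201 introns took 1151, 1611 and 752 estimated counts in the suspended vehicle libraries, or 79.2%, 80.4% and 82.1% of all FOS counts. With AT-0174 they took 79.3%, 82.2% and 83.3%. The leading one, FOS-206, held 28.8% to 31.7% of the counts in suspended vehicle cells, more than FOS-201 with 17.9% to 20.8%. The shares of the 2 suspended groups overlapped, while FOS counts differed between their libraries. In attached cells the intron-holding transcripts took 8.2, 3.2 and 9.7 counts, too few for a stable share. Counts on the remaining FOS transcripts alone were 18.8, 30.8 and 13.3 in attached libraries and 302, 393 and 165 in suspended vehicle libraries, so that the groups were apart without the intron-holding transcripts too. The relative rise was smaller, however. The mean went from 21.0 to 287 counts on the remaining transcripts and from 7.03 to 1171 on the intron-holding ones. The second of these rests on 8.2, 3.2 and 9.7 attached counts, so the size of that rise is not stable. The 46.4-fold change of FOS is over the summed counts of all its transcripts. How much of it comes from reads inside introns was not measured. A read was assigned by a model over transcripts that share most of their exons, and a transcript that holds intron bases also collects exonic reads, so these shares are not shares of reads inside introns. Whether unspliced RNA or the shape of the coverage accounts for them was not tested.

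**Figure D5:**
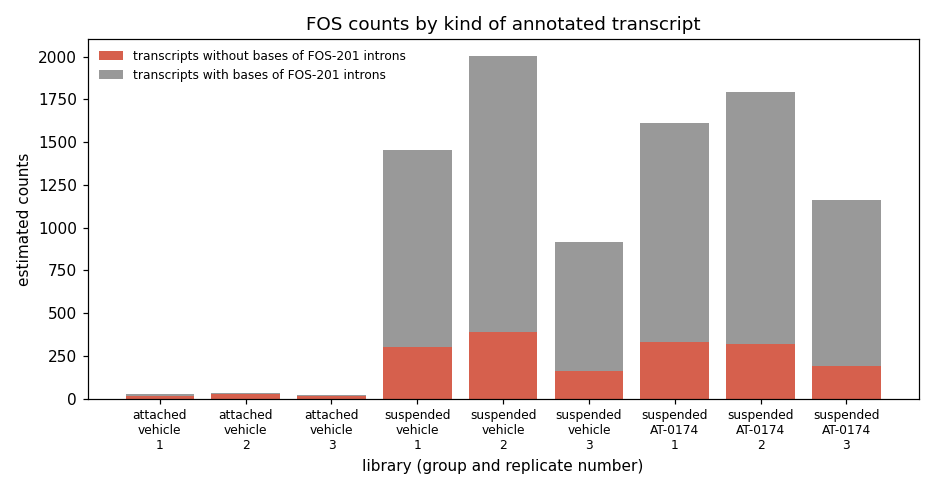
Estimated FOS counts (vertical axis) in each library, split into annotated transcripts with and without bases of the introns of FOS-201. The upper grey part makes up 79.2% to 83.3% of the bar in the 6 suspended libraries, and the attached libraries hold 23 to 34 counts in all.

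FOSB counts fell mostly on FOSB-206 in attached cells, at 62.3% to 96.0% of 81 to 103 counts, and on several transcripts in suspended vehicle cells, where FOSB-206 held 11.3% to 70.8%. The reference transcript FOSB-201 was given 0 counts in 7 of 9 libraries, and the range within the suspended vehicle group was too wide to compare conditions. For JUN, the transcript annotated for nonsense-mediated decay, JUN-202, held 75.3% to 86.0% of counts in attached and 65.1% to 76.5% in suspended vehicle cells, ranges that overlapped. Of the 2852 bases of JUN-202, 2485 lie in the exon of the reference transcript JUN-201. The split between them is therefore a model assignment and not a measure of JUN mRNA subject to decay. For JDP2, JDP2-201 led with 68.6% to 71.3% in attached and 71.8% to 76.3% in suspended vehicle cells. JUNB has 1 quantified transcript.

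The genes whose profile over the 9 libraries was most like that of each of FOS, JUN and ATF3 were found by the root mean square difference of centred log2 CPM, among 12762 genes at a mean of 1 CPM or more outside the family. FOS had no close match by this measure. It is not scaled for the size of a change, so a gene that moved less than FOS is far from it whatever its shape. The nearest, PTHLH (parathyroid hormone-like hormone), differed by 1.97 on the log2 scale where the SD of FOS itself was 2.61, followed by S100P at 1.99, DUSP1 at 1.99 and CHURC1-FNTB at 2.00, the last a read-through gene whose reads overlap its neighbours. JUN was matched closely by GPCPD1 at 0.052, PLCB1 at 0.068, DUSP6 at 0.075 and SPRY1 at 0.080, against its own SD of 0.28. DUSP6 and SPRY1 are feedback inhibitors of the ERK pathway. DUSP6 went from 133 ± 2.08 to 178 ± 5.41 and 205 ± 7.48 CPM, and SPRY1 from 33.4 ± 1.60 to 42.0 ± 1.72 and 49.1 ± 1.29 CPM, in the attached, suspended vehicle and AT-0174 groups. For ATF3 the nearest genes were ENSG00000233836, GREB1L, LRRC26 and TM2D3 at 0.088 to 0.11 against an SD of 0.19, a likeness between profiles that hardly differ between groups.

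Immediate-early genes outside AP-1 were called higher more often than lower in suspension. Of 35 listed genes 32 were tested, and 13 were called between suspended and attached vehicle cells, 11 higher and 2 lower (40.6%), with a median log2 fold change of 0.085. Of all genes tested 21.2% were called, 10.4% higher and 10.8% lower, and the difference from the list was not tested. The smallest p-values among those higher belonged to DUSP6, which dephosphorylates ERK, with a log2 fold change of 0.42 ± 0.035 (edgeR quasi-likelihood adjusted p = 1.54e-05), and KLF2, with 0.63 ± 0.060 (edgeR adjusted p = 4.11e-05). MYC rose by 0.48 ± 0.046 (edgeR adjusted p = 4.38e-05) and BHLHE40 by 0.32 ± 0.032 (edgeR adjusted p = 6.46e-05). The anti-apoptotic gene MCL1, at -0.15 ± 0.033 (edgeR adjusted p = 0.00719), and the NF-κB cofactor gene NFKBIZ, at -0.66 ± 0.19 (edgeR adjusted p = 0.0288), fell. DUSP1, a phosphatase of JNK and p38, had a log2 fold change of 1.45 ± 0.16 and EGR1, a zinc finger factor named here after its values were seen, of 0.96 ± 0.15, both below that of FOS. With AT-0174, 2 of the 32 were called (6.25%), KLF2 at 0.35 ± 0.058 (edgeR adjusted p = 0.0119) and DUSP6 at 0.21 ± 0.035 (edgeR adjusted p = 0.0134), both higher. Of all genes tested 0.779% were called with AT-0174, and the difference from the list was not tested. Without suspended vehicle replicate 1 or 3 or AT-0174 replicate 2 neither was called, and without AT-0174 replicate 1 or 3 the count was 1.

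Genes described as AP-1 targets were split in direction. Of 55 listed, 29 were tested and 12 were called in suspended against attached vehicle cells, 6 higher and 6 lower (41.4%), with a median log2 fold change of 0.056, beside 21.2% of all genes called, and the difference was not tested. The cell cycle inhibitor gene CDKN1A rose by 0.36 ± 0.039 (edgeR adjusted p = 9.37e-05) and the cyclin gene CCND1 by 0.17 ± 0.031 (edgeR adjusted p = 0.003). DUSP1, which both lists hold, and the antioxidant gene GPX1 were the other named genes that rose. The metalloproteinase inhibitor gene TIMP1 fell by 0.29 ± 0.039 on the log2 scale (edgeR adjusted p = 0.000574), and HMOX1 and LAMB3 were also lower. HMOX1, which encodes heme oxygenase, was the 1 target called with AT-0174 in the edgeR fit, where DESeq2 called 4 and limma-voom 3, moving from 37.1 ± 1.28 to 74.2 ± 5.28 CPM (log2 fold change 1.00 ± 0.062, edgeR adjusted p = 2.5e-06). HMOX1 is at least as well known as a target of NRF2. This 1 of 29 targets (3.45%) stands beside 0.779% of all genes called with AT-0174 by edgeR, and the difference was not tested.

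The counts of the following lists stand beside 21.2% of all genes called in suspended against attached vehicle cells, and the difference from that share was not tested. Of 36 kinases and factors upstream of AP-1, 33 were tested and 4 called in suspended against attached vehicle cells (12.1%). RPS6KA5, which encodes the kinase MSK1, was higher by 0.37 ± 0.052 (edgeR adjusted p = 0.000733), MAP3K5 and MAPK13 were higher by 0.18 and 0.11, and MAPK7, which encodes ERK5, was lower with -0.23 ± 0.057 (edgeR adjusted p = 0.0153). Serum response factor and its ELK partners were in this list and were not called. Of 9 factors of mRNA decay that act on AP-1 messages, 3 were called (33.3%). ZFP36L1, which binds AU-rich elements and promotes decay, fell from 553 ± 35.0 to 384 ± 13.6 CPM (log2 fold change -0.53 ± 0.059, edgeR adjusted p = 0.000147), HNRNPD was lower with -0.12 and CNOT1 higher with 0.13. Of 41 other bZIP factors, 35 were tested and 6 were called (17.1%), 5 higher and 1 lower. XBP1, the factor of the unfolded protein response, rose by 0.37 ± 0.034 (edgeR adjusted p = 2.64e-05), CEBPA by 0.29 and ATF6 by 0.15, and CREBZF had -0.27. With AT-0174 no gene of these 3 lists was called by edgeR, where 0.779% of all genes were. An unadjusted edgeR p under 0.05 was found for 2 of 33 upstream genes, 3 of 9 decay factors and 5 of 35 bZIP factors. It was found for 1401 of all 15528 genes, and the lists were not tested against this share. DESeq2 called 0, 2 and 1 genes of the upstream, decay and bZIP lists and limma-voom 0. In suspension, 2 upstream genes and 3 other bZIP factors were called without attached replicate 3, and the same numbers without suspended vehicle replicate 2.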

How the data were processed

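Expected (estimated) counts per gene, deposited as a table by the authors, came from their alignment and quantification with STAR 2.7.9a and Salmon 1.10.1 after trimming with Trim Galore 0.6.7 and cutadapt 3.4, per the submitters' processing notes, on GRCh38. The authors also deposited TPM, effective length and estimated counts per transcript and library. The labels and the methods name different mRNA library kits. Counts were rounded (13.2% of values were not exactly whole, with no tolerance), filtered with edgeR's filterByExpr, scaled by TMM and fitted over all 9 libraries with edgeR 4.0.16 quasi-likelihood in R 4.3.3, with Benjamini-Hochberg adjustment over 15528 genes. "Called" means an adjusted p under 0.05. The script was tested on simulated data. CPM use TMM-scaled totals. Gene TPM are sums over transcripts. No pair of libraries agreed within sampling noise.

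Members and gene lists were chosen with earlier results of these data known. Beside the family, the genes named were, per list and comparison, up to 4 called higher and 4 lower with the smallest p, and the 4 nearest profiles of FOS, JUN and ATF3. A few genes that this rule names are not reported here. Alternatives were DESeq2 1.42.0, limma-voom 3.58.1, other scaling and filters, counts rebuilt from TPM, a replicate block and leaving out each library. Leaving out mitochondrial transcripts was added after the data were seen. Intervals and floors cover counting error only.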

Additional observations from a re-analysis of the deposited data

How the results depend on the processing

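For the family, the count of members called in suspended against attached vehicle cells was 5 to 6 without 1 library at a time. The log2 fold changes over those fits were 5.29 to 5.80 for FOS, 1.29 to 1.67 for FOSB, 0.37 to 0.51 for JUN and -0.30 to -0.26 for JDP2.

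Suspended against attached vehicle cells: genes called numbered 3297, and 1712 with counts rebuilt from TPM (2 of the other bZIP factors). Without 1 library at a time they were 1935 to 2693 genes, 3 to 7 other bZIP factors and 2 to 4 upstream genes, with the lowest values without attached replicate 3 (1935 genes) and without suspended vehicle replicate 2 (1951 genes).

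AT-0174 against vehicle: genes called numbered 121, but 214 with DESeq2, 499 with no filter and 35 with counts rebuilt from TPM, and 63 to 86 without 1 library. DESeq2 called 1 other bZIP factor, 2 decay factors and 4 AP-1 targets, and no filter called 2 family members, 2 other bZIP factors, 3 decay factors, 6 immediate-early genes and 7 targets. Targets called were 3 with limma-voom, 2 with at least 10 counts in every library, 3 without mitochondrial transcripts and 1 to 2 without 1 library. Immediate-early genes called were 0 with counts rebuilt from TPM and 0 to 2 without 1 library, being 0 without suspended vehicle replicate 1 or 3 or AT-0174 replicate 2. The cause of these differences was not tested.

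Over all genes, libraries with the same replicate number did not deviate together. A measure over all genes cannot settle whether a few genes shared an effect of replicate. With a replicate block 3250 and 146 genes were called in the 2 comparisons, and 5 and 0 family members. Counts rebuilt from TPM moved the log2 fold change of FOSB to 1.87 and of ATF3 to -0.45 in suspension, and of ATF3 to 0.49 with AT-0174. Depth limits FOSL1, BATF3 and FOS in attached cells, where FOS rests on 23 to 34 counts.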
